A study of Saccharomyces cerevisiae with 222 samples.

Results

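The 50 genes described here are those of amino acid synthesis other than the arginine pathway, together with GCN4, out of 5818 genes in each table. They were taken by name: 6 genes of histidine synthesis, 10 of the branched-chain amino acids, 6 of lysine, 9 of the aromatic amino acids, 5 of homoserine and threonine, 6 of sulfate assimilation and methionine, 4 of serine, 3 of proline, and GCN4 itself. The rule names genes and uses no threshold on a measured value. Every member was found once, and all 50 passed the filter on low counts in all 4 experiments.

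Polyadenylated RNA was sequenced in 222 libraries of budding yeast of the SK1 background, with 3 libraries in each of 74 combinations of strain and time. In the mitotic experiment (42 libraries), haploid cells labelled MATa grew in rich medium (YPD). Wild type and ume6Δ were sampled once. The control carried UME6-AID-3V5, whose Ume6 protein bears a degron, and LexA-ER-B112, an activator switched on by β-estradiol. The Ume6 depletion strain carried in addition 4xLexO-TIR, the receptor that sends AID-tagged Ume6 to degradation when auxin is present. Both strains received β-estradiol at −30 min and auxin at 0 min, and were sampled at −30, 0, 15, 30, 60 and 120 min. In the meiotic depletion experiment (36 libraries), diploids carried pCUP-IME1, pCUP-IME4, UME6-AID-3V5 and lexA-ER-GAL4AD, with 8xlexO-OsTIR in the depletion strain only. These cells received β-estradiol and auxin at 0.5 h in sporulation medium, and CuSO4, which switches on both pCUP genes, at 2 h.

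The remaining experiments tested tethering in diploids sampled at 0, 2, 4 and 6 h of sporulation. In the rescue experiment (96 libraries), IME1 or sfGFP-IME1 was combined with UME6, UME6-3V5, UME6(T99N)-3V5 or UME6(T99N)-3V5-aGFP. The T99N change disrupts the contact between Ume6 and Ime1, and aGFP is a nanobody that binds GFP, so that sfGFP-IME1 with UME6(T99N)-3V5-aGFP is called tethered below and IME1 with the same allele untethered. In the activation domain (AD) experiment (48 libraries), ime1Δ diploids with UME6(T99N)-3V5-aGFP expressed IME1, sfGFP-IME1, B112 or sfGFP-B112 from the IME1 promoter, placed at HIS3. B112 is a bacterial sequence that activates transcription in yeast. The sporulation medium was acetate supplied with adenine, uracil, histidine, leucine and tryptophan, so several of the amino acids whose synthesis is described here were provided.

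Gcn4 is the transcription activator of general amino acid control. When an amino acid runs short, uncharged tRNA activates the kinase Gcn2, general translation falls, and GCN4 mRNA, held back by short upstream reading frames, is translated more. Gcn4 protein then activates genes in nearly all the pathways listed above, so GCN4 mRNA is not a measure of Gcn4 activity. Further regulators act on single pathways, such as Leu3 on leucine, Lys14 on lysine, and Met4 with Met28, Met31 and Met32 on sulfur. Ume6 represses early meiotic and metabolic genes in growing cells through Sin3 and Rpd3 and, with Ime1, activates early meiotic genes in sporulation.

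Libraries held 44189 to 23448759 estimated counts. The smallest, of sfGFP-IME1 with UME6-3V5 at 4 h, was in no group compared here. In the rescue experiment, the 0 h and 2 h libraries of replicate 1 of the strain with IME1 and UME6-3V5 had counts and TPM (transcript abundance scaled by length and by library total) that matched only when exchanged, and both were left out. UME6 was at 34.9 to 36.5 TPM in wild type and 0.051 to 0.557 TPM in ume6Δ. Depletion acts on the protein, so UME6 mRNA does not check it. In the AD experiment IME1 was at 555 to 4560 TPM with IME1, 456 to 2490 TPM with sfGFP-IME1, 0.274 to 9.76 TPM with B112 and 0.392 to 13.4 TPM with sfGFP-B112. The ume6Δ libraries went against the MATa label, since STE2, the receptor of a-cells, was at 18.2, 19.6 and 23.4 TPM against 602, 638 and 668 TPM in wild type, and STE3, the receptor of α-cells, at 4.4, 5.73 and 5.99 against 0.368, 0.0674 and 0.212 TPM. The marker genes are not members. Per the study's strain list, the SK1 background is ura3, leu2, his3 and trp1. The mitotic and meiotic depletion strains carry HIS3 and TRP1 markers and the AD strains a HIS3 marker, and neither is listed for the rescue strains. URA3 is the marker of the aGFP allele, listed as CaURA3 on its plasmid, and the rescue strains without aGFP carry ura3::URA3. For some strains of the list the HIS3 and TRP1 markers are given as those of C. glabrata. The HIS3 and URA3 values below are of the SK1 genes and need not count these markers. The part of these markers in the members' levels was not tested. HIS3 was listed at 0 TPM in the mitotic, meiotic depletion and AD experiments and had group means of 19.19 to 148.6 TPM in the rescue experiment, while URA3 was at 11.7 to 26.5 TPM in its strains with aGFP and at 38 to 156 TPM in the others.

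The level of the members, given as mean TPM of a group, which corrects for transcript length, moved by between 4.36-fold (SER1, phosphoserine aminotransferase, 75.1 to 327 TPM) and 272-fold (HOM3, aspartate kinase, 2.84 to 773 TPM) from the lowest to the highest of the 74 groups. ILV2, the catalytic subunit of acetolactate synthase, ranged from 9.39 to 1466 TPM, and ARO4, a DAHP synthase that opens the aromatic pathway, from 4.04 to 946 TPM. GCN4 had the highest group mean of any member, 4042 TPM. Next was ILV5, acetohydroxyacid reductoisomerase of the branched-chain pathway, at 3886 TPM in ume6Δ. Of the 50 members, 35 were lowest in an AD strain at 0 h. The highest group was ume6Δ for 13, the AD strain with untagged B112 at 2 h for 8, and for 6 each untagged IME1 of the AD experiment and the untethered strain of the rescue experiment, both at 2 h. These levels were set across separately processed tables and are a description.

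GCN4 was lowest in the depletion strain at 60 min of mitotic growth (514, 615 and 625 TPM) and highest in the sfGFP-B112 strain at 4 h (3437, 4128 and 4561 TPM), a 6.91-fold range of means. Of the other members SER1 and ILV6 had narrower ranges. All 14 mitotic groups had means of 585 to 742 TPM, and neighbours in that order overlapped. Across the 74 group means, Spearman's rho with GCN4 was −0.082 for HIS4, a histidine enzyme of several activities, and 0.033 for HOM3, against 0.747 for ILV6, the regulatory subunit of acetolactate synthase, and 0.677 for LYS21, a homocitrate synthase. These points share experiments, strains and cultures, so the values describe the groups only. The genes whose pattern was most like that of the other members were ILV1, threonine deaminase, with a median rho of 0.756, and TRP2, anthranilate synthase, with 0.753, while BAT2, the cytosolic branched-chain aminotransferase, had −0.574.

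Loss of UME6 in growing cells was accompanied by higher levels of most of these genes. In ume6Δ, 37 of the 50 members rose and 2 fell against wild type (edgeR, adjusted p below 0.05), beside 27.5% of all genes tested higher and 27.8% lower. The median log2 fold change (log2FC) of the members was 0.56. All 6 sulfate and methionine genes and all 5 homoserine and threonine genes rose, as did 5 of 6 histidine, 8 of 10 branched-chain, 6 of 9 aromatic, 4 of 6 lysine and 3 of 4 serine genes. No proline gene rose. The 50 genes held 3.71 to 3.93% of all estimated counts in ume6Δ.

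MET3, ATP sulfurylase of sulfate assimilation, was at 13.7, 13.5 and 14.5 TPM in wild type and 105, 106 and 108 TPM in ume6Δ. Its log2FC was 2.85 ± 0.10 (SE, edgeR adjusted p = 5.2e-23), the largest of the members. MET16, PAPS reductase of the same pathway, was at 25.9, 21.7 and 21.0 TPM against 131, 126 and 137 TPM (log2FC 2.42 ± 0.14). The groups lay far apart for both genes. LYS1, saccharopine dehydrogenase, the last enzyme of lysine synthesis, was at 57.1, 55.6 and 84.5 TPM in wild type and 367, 375 and 385 TPM in ume6Δ (log2FC 2.43 ± 0.14). SER3, a phosphoglycerate dehydrogenase that opens serine synthesis, was at 34.2, 30.3 and 29.1 TPM against 131, 132 and 145 TPM (log2FC 2.02 ± 0.17). HIS4 was at 175, 169 and 216 TPM against 733, 782 and 738 TPM (log2FC 1.92 ± 0.11). For these genes too every ume6Δ library lay above every wild-type library.

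Among the branched-chain genes, ILV6 was at 350, 343 and 451 TPM in wild type and 1467, 1450 and 1502 TPM in ume6Δ (log2FC 1.86 ± 0.19). LEU1, isopropylmalate isomerase of leucine synthesis, was at 670, 698 and 828 TPM against 1960, 2279 and 2226 TPM (log2FC 1.46 ± 0.13). Both members that fell did so by little. PRO1, glutamate 5-kinase, was at 67.1, 72.2 and 75.2 TPM in wild type and 56.5, 51.8 and 53.4 TPM in ume6Δ (log2FC −0.50 ± 0.07). ARO7, chorismate mutase, was at 163, 168 and 125 TPM against 117, 108 and 142 TPM (log2FC −0.42 ± 0.12), and its libraries overlapped. GCN4 mRNA was at 553, 626 and 831 TPM in wild type and 747, 718 and 761 TPM in ume6Δ, with overlapping groups and a log2FC of 0.05 ± 0.15 (edgeR adjusted p = 0.79). The ume6Δ and wild-type libraries also differ in the mating-type genes given above, and the study reports a severe growth defect of ume6Δ. The part of these differences in the members' levels was not tested.

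**Figure D1:**
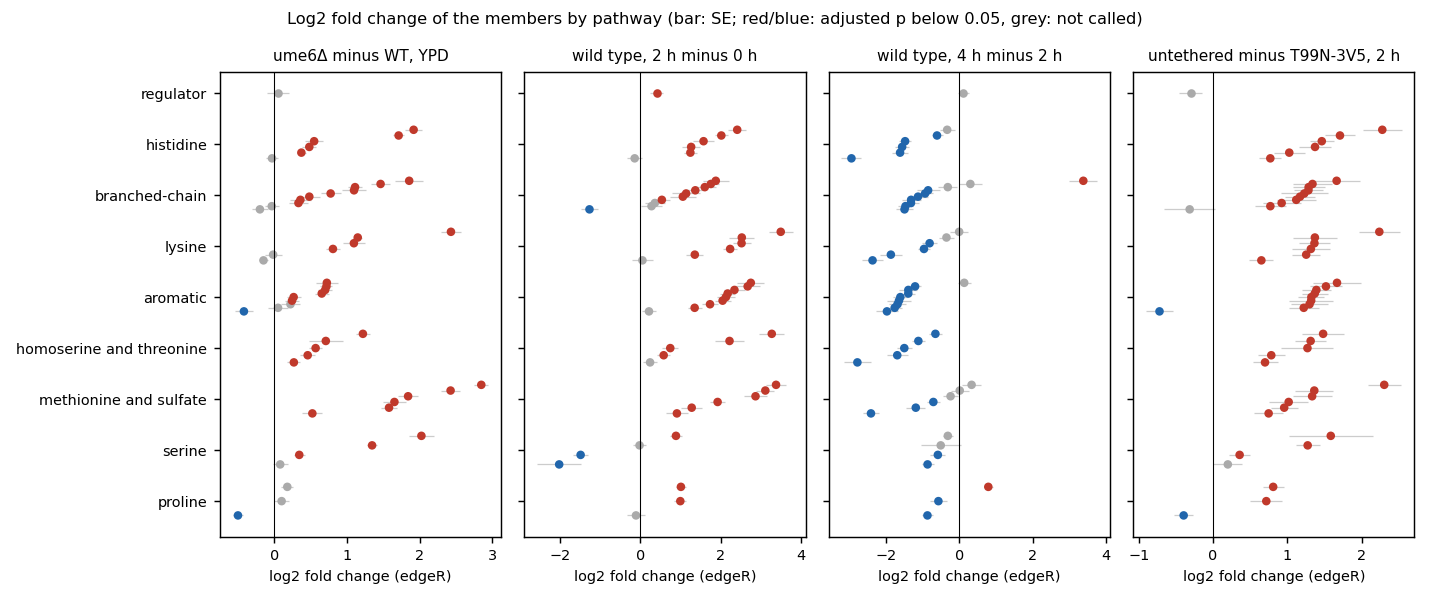
Log2 fold change (horizontal axis) of each of the 50 genes, grouped by pathway (vertical axis), in ume6Δ minus wild type, in wild type at 2 h minus 0 h and at 4 h minus 2 h of sporulation, and in untethered minus IME1; UME6(T99N)-3V5 at 2 h. Dots are estimates and bars are standard errors, coloured by the edgeR call. Most dots lie right of 0 in the panels for ume6Δ, 2 h minus 0 h and the untethered strain (37, 39 and 45 genes higher) and left of 0 in the panel for 4 h minus 2 h (36 genes lower).

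The AID-tagged control before treatment was not equal to wild type in these genes. At −30 min, 3 members were higher and 20 lower than in wild type, beside 21% and 18.8% of all genes, with a median log2FC of −0.19. With only these groups in the fit, 3 were higher and 11 lower. SER3 was the exception in size, at 131, 132 and 131 TPM in the control against 29.1 to 34.2 TPM in wild type (log2FC 2.03 ± 0.17, edgeR adjusted p = 2e-11). MET3 also rose (log2FC 0.84 ± 0.10). LEU1 was at 415, 385 and 485 TPM in the control (log2FC −0.82 ± 0.12), and HIS4 at 110.1, 109 and 124 TPM (log2FC −0.75 ± 0.11), each below every wild-type library. Without wild-type replicate 3, 7 members were higher, and without control replicate 2, 5 were higher and 13 lower. UME6 mRNA was at 87.2 to 98.5 TPM in this control and 34.9 to 36.5 TPM in wild type. All 5 early meiotic genes read (IME2, ZIP1, SPO13, HOP1 and SPO11) were higher in the control, with a median log2FC of 0.80. The part of these differences in the members' levels was not tested.

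Acute depletion of Ume6 gave small changes, most of them to lower levels at 15 min. At −30 min no member differed between the depletion strain and the control, beside 0.237% of all genes (13 genes; 343 at an unadjusted p below 0.05), and at 0 min none did beside 0.51% (28 genes; 477 at an unadjusted p below 0.05). DESeq2 also called no member at either time. The median log2FC of the members was 0.04 at −30 min and already −0.11 at 0 min, when auxin was added. At 15 min 13 members were lower and 2 higher in the depletion strain, beside 10.5% and 10.2% of all genes, and the median log2FC of the members was −0.21. The lower genes came from the lysine (4 of 6), branched-chain (3 of 10), aromatic (2 of 9), methionine (2 of 6), histidine (1 of 6) and serine (1 of 4) pathways. The early meiotic gene IME2 had a mean of 5.39 TPM in the control and 54.9 TPM in the depletion strain at this time.

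LYS1 was at 59.1, 58.5 and 59.6 TPM in the control at 15 min and at 32.8, 41.8 and 39.6 TPM in the depletion strain. Its log2FC was −0.69 ± 0.14 (edgeR adjusted p = 0.00098), and by 120 min it was −0.15 ± 0.13 (edgeR adjusted p = 0.66). MET6, the methionine synthase, was at 360, 378 and 317 TPM in the control at 15 min and 228, 250 and 217 TPM in the depletion strain (log2FC −0.66 ± 0.14). Neither gene's libraries overlapped at 15 min. MET14, APS kinase of sulfate assimilation, was among the higher genes, at 34.2, 31.5 and 32.1 TPM against 51.3, 44.7 and 44.2 TPM (log2FC 0.47 ± 0.15). The other was ARO3, the second DAHP synthase, at 277, 263 and 272 TPM against 333, 353 and 338 TPM (log2FC 0.28 ± 0.09), whereas its isozyme gene ARO4 had a log2FC of −0.39 at the same time. GCN4 had a log2FC of −0.24 ± 0.15 at 15 min (edgeR adjusted p = 0.24) and of −0.23 at 0 min, where it was also not called.

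Fewer members were called at the later times. At 30 min 5 members were lower and 1 higher, beside 7.98% of all genes either way. LYS20, a homocitrate synthase that opens lysine synthesis, was at 93.8, 98.9 and 94.6 TPM in the control and 67.3, 64.2 and 67.5 TPM in the depletion strain. At 60 min 3 were lower and 1 higher, beside 5.96%. SER1 was at 294, 245 and 277 TPM against 205, 206 and 170 TPM (log2FC −0.48 ± 0.08, edgeR adjusted p = 1.8e-05). At 120 min ARO3 alone differed, beside 5.59% of all genes, at 430, 424 and 432 TPM in the control and 545, 519 and 488 TPM in the depletion strain. No member's difference at 120 min was itself shown to differ from that at 15 min, beside 0.437% of all genes (24 genes; 649 at an unadjusted p below 0.05).

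Single libraries decided many of these calls. At 15 min the number of members called was 6, 3 or 7 without control replicate 1, 2 or 3, and 2, 13 or 4 without depletion replicate 1, 2 or 3, and it was 34 when only the 2 groups compared were fitted. At 30 min it ranged from 0 (without control replicate 2 or depletion replicate 1) to 8 (without depletion replicate 3), with 2 without control replicate 1 and 1 without control replicate 3 or depletion replicate 2. At 60 min it was 1, 8 and 7 without depletion replicates 1, 2 and 3 and 2 without control replicate 2 or 3. At 120 min it was 0 without control replicate 2 or depletion replicate 1 or 2, and 3 without depletion replicate 3. Without control replicate 1 the single call at 120 min was of a lower gene. With only the 2 groups compared in the fit, 3, 1 and 0 members were called at 30, 60 and 120 min, and DESeq2 called 7 and 3 at 60 and 120 min.

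**Figure D2:**
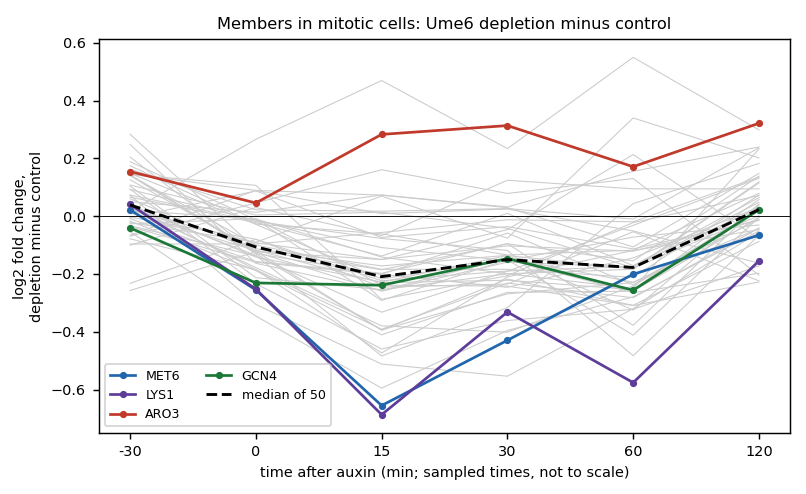
Log2 fold change of Ume6 depletion minus control (vertical axis) against time from auxin addition in minutes (horizontal axis) for the 50 genes as thin lines, with MET6, LYS1, ARO3, GCN4 and the median marked. The median is −0.11 at 0 min, lowest at 15 min (−0.21) and 0.02 at 120 min.

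The control itself changed over the course. The β-estradiol that switches on its LexA-ER-B112, the auxin and further growth all fell in this interval and cannot be told apart. From −30 to 120 min 25 members rose and 3 fell, beside 27% and 27.8% of all genes, with a median log2FC of 0.21. LEU4, the main isopropylmalate synthase, went from 173, 143 and 171 TPM to 654, 499 and 659 TPM (log2FC 1.80 ± 0.17). SER1 went from 107, 109 and 114 TPM to 313, 353 and 316 TPM (log2FC 1.47 ± 0.08), and MET6 fell (log2FC −0.78 ± 0.14). Without control replicate 2 at −30 min 6 members fell, and without replicate 3 at 120 min 5 did. In this comparison alone the deviations of every same-numbered pair of libraries correlated above 0.1 (r = 0.343 to 0.632). With the culture as a block 25 members rose and 6 fell.

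In wild-type diploids (IME1; UME6) entering sporulation, the members rose and then fell. From 0 to 2 h 39 of the 50 rose and 3 fell, beside 33% and 33.8% of all genes, and the median log2FC of the members was 1.36. The rise took in all 6 sulfate and methionine genes, 8 of 9 aromatic, 7 of 10 branched-chain, 5 of 6 histidine, 5 of 6 lysine and 4 of 5 homoserine and threonine genes. The 50 genes took 0.809 to 0.922% of the counts at 0 h and 1.536 to 2.176% at 2 h.

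LYS1 was at 24.0, 21.6 and 34.2 TPM at 0 h and 243, 433 and 243 TPM at 2 h (log2FC 3.49 ± 0.30, edgeR adjusted p = 1.4e-16). MET17, the sulfhydrylase that makes homocysteine from sulfide, was at 25.8, 27.0 and 37.3 TPM and then 283, 428 and 246 TPM (log2FC 3.38 ± 0.24). HOM2, aspartate semialdehyde dehydrogenase, was at 60.2, 63.8 and 76.5 TPM and then 668, 797 and 525 TPM (log2FC 3.27 ± 0.31). No 0 h library of these genes reached a 2 h library. GCN4 rose far less, from 1570, 1571 and 1822 TPM to 2299, 2429 and 2070 TPM (log2FC 0.41 ± 0.16, edgeR adjusted p = 0.018). The genes that fell were SER3, from 209, 116 and 312 TPM to 59.1, 62.3 and 40.8 TPM (log2FC −2.01 ± 0.55), SER2, the phosphatase that ends serine synthesis (log2FC −1.48 ± 0.19), and BAT2 (log2FC −1.26 ± 0.21). The mitochondrial isozyme gene BAT1 rose (log2FC 1.88) while BAT2 fell, and SER33 rose (log2FC 0.89) while SER3 fell. Isozyme genes of such pairs are alike in sequence and may share reads, so their separate values are uncertain.

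From 2 to 4 h 36 members fell and 2 rose, beside 23.1% and 22.9% of all genes (median log2FC −1.04). HIS4 went from 163, 197 and 108 TPM to 16.9, 28.3 and 22.2 TPM (log2FC −2.94 ± 0.27), below its level at 0 h of 49.3, 50.0 and 53.3 TPM. HOM3 went from 515, 498 and 360 TPM to 63.6, 94.3 and 62.5 TPM (log2FC −2.77 ± 0.37). LEU1 went the other way, from 92.9, 89.1 and 80.6 TPM to 872, 1139 and 987 TPM (log2FC 3.38 ± 0.38), and PRO3, which makes proline in the last step of its pathway, rose by a log2FC of 0.79 ± 0.13. GCN4 had a log2FC of 0.11 ± 0.16 (edgeR adjusted p = 0.58) over the same interval.

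From 4 to 6 h 31 members fell and 7 rose, beside 43.4% and 30.1% of all genes (median log2FC −0.73, against −0.24 for all genes tested). GCN4 fell in this interval, from 2559, 2841 and 2636 TPM to 629, 741 and 829 TPM (log2FC −1.25 ± 0.16). BAT2 rose from 128, 177 and 171 TPM to 484, 436 and 434 TPM (log2FC 2.13 ± 0.21), and SER33 from 77.9, 86.5 and 74.3 TPM to 218, 193 and 188 TPM (log2FC 1.95 ± 0.14). LEU1 rose further, to 1305, 1718 and 1642 TPM (log2FC 1.25 ± 0.35). The meiotic regulator NDT80 had a mean of 942 TPM at 6 h. On the TPM scale the median of all genes lay lower by 0.58 in this interval and higher by 0.13 from 2 to 4 h.

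**Figure D3:**
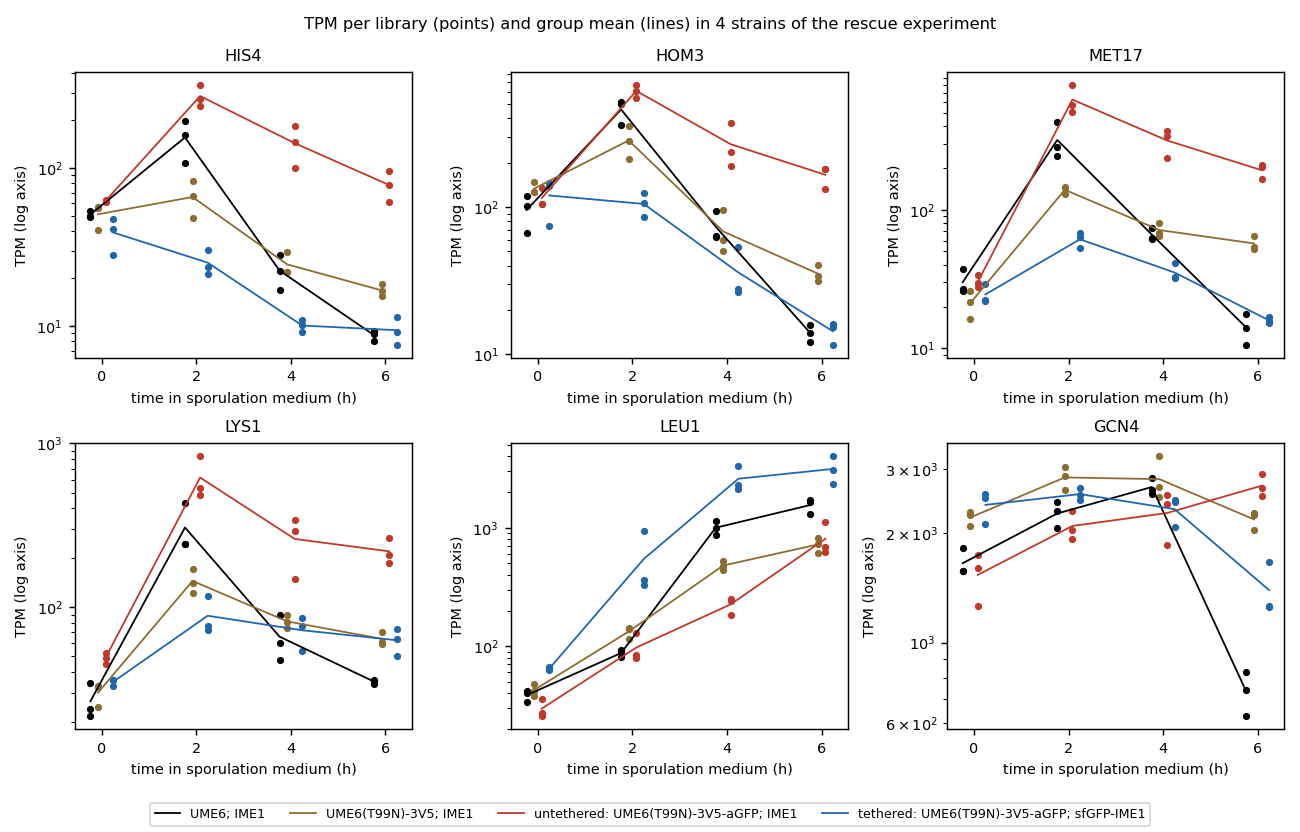
TPM (log axis) of HIS4, HOM3, MET17, LYS1, LEU1 and GCN4 in each library at 0, 2, 4 and 6 h of sporulation, for wild type, IME1; UME6(T99N)-3V5, untethered and tethered strains. HIS4 and MET17 are highest in the untethered strain from 2 h on and LEU1 is highest in the tethered strain at 4 and 6 h.

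Diploids with copper-driven IME1 showed another course. In the control of that experiment 22 members rose and 10 fell from 0.5 to 2 h, before CuSO4 (beside 30.9% and 35.5% of all genes, median log2FC 0.24). The β-estradiol and auxin added at 0.5 h and the time in sporulation medium cannot be told apart in this interval. LYS4, homoaconitase, rose most, from 14.5, 14.8 and 15.9 TPM to 67.1, 77.8 and 64.5 TPM (log2FC 2.06 ± 0.12), and BAT2 fell most (log2FC −1.31 ± 0.16). From 2 to 2.5 h, across CuSO4 addition, 18 rose and 11 fell (26.5% and 33.4% of all genes, median 0.14). Here the copper, the induced IME1 and IME4, and time cannot be told apart either. MET17 went from 45.0, 34.4 and 33.1 TPM to 131, 155 and 169 TPM (log2FC 1.76 ± 0.15), while LYS20 went from 119, 83.7 and 121 TPM to 32.4, 41.8 and 44.6 TPM (log2FC −1.70 ± 0.20). HIS4 fell (log2FC −1.07 ± 0.16), as did GCN4 (log2FC −0.62 ± 0.16).

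From 2.5 to 6 h 30 members rose and 8 fell (33% and 31.6% of all genes, median 0.43), and all 6 sulfate and methionine genes rose. Per the study, many early meiotic genes rise at 2.5 h in pCUP strains and drop at 3 h, for an unclear reason. IME1 was at 8790 to 11300 TPM in this control at 2.5 h and 2470 to 3640 TPM at 3 h. Whether the members share this fluctuation was not tested. MET6 went from 130, 130 and 142 TPM to 1454, 1106 and 1264 TPM (log2FC 3.48 ± 0.21). GCN4 went from 869, 1161 and 1130 TPM to 3065, 3283 and 3166 TPM (log2FC 1.82 ± 0.17), and LYS20 returned to 116, 122 and 141 TPM. The share of counts in the 50 genes was 0.589 to 0.603% at 0.5 h and 1.905 to 2.052% at 6 h. The scale moves these counts' centre, since on the TPM scale the median of all genes was shifted by 0.16, 0.26 and −0.23 in the 3 intervals.

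Depletion of Ume6 in this background changed few members. Per the study, Ume6 protein was depleted less fully in these cells than in the mitotic ones, so part of it remained. At 2 h, before IME1 induction, only TRP3, a subunit of anthranilate synthase, was called, beside 4.74% of all genes. It was at 26.1, 17.7 and 16.9 TPM in the control and 25.9, 32.5 and 24.0 TPM in the depletion strain, with overlapping TPM. The call was lost without control replicate 2 or 3 or depletion replicate 2, while 6 members were called without control replicate 1 and 2 without depletion replicate 1. With only these groups in the fit none was called, and DESeq2 called 3. At 2.5 h none was called, beside 8.27% of all genes (457 genes; 1280 at an unadjusted p below 0.05), and DESeq2 called 1. Without control replicate 1, a single member was lower.

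At 6 h 8 members were higher with depletion and 1 was lower, beside 13.6% of all genes, and 5 of the 8 were branched-chain genes. ILV5 was at 800, 825 and 884 TPM in the control and 1255, 1699 and 1185 TPM in the depletion strain (log2FC 0.80 ± 0.19, edgeR adjusted p = 0.004). ILV2 was at 317, 302 and 313 TPM against 507, 543 and 464 TPM (log2FC 0.78 ± 0.19), and BAT1 at 754, 746 and 812 TPM against 1067, 1351 and 974 TPM (log2FC 0.63 ± 0.21). ILV3, dihydroxyacid dehydratase, and LEU4 also rose (log2FC 0.65 and 0.46), with TRP4, TRP5 and HOM6 (0.39, 0.37 and 0.36). LYS4 fell, from 52.1, 44.5 and 46.8 TPM to 35.3, 36.6 and 34.1 TPM (log2FC −0.36 ± 0.11). The groups did not overlap in ILV5, ILV2, BAT1 or LYS4. The number called was 2, 4 or 3 without control replicate 1, 2 or 3 and 5 or 2 without depletion replicate 1 or 2. IME2 had a mean of 752 TPM in the control and 308 TPM in the depletion strain at 6 h.

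The T99N change was accompanied by few calls among the members. Against UME6-3V5, of which 2 libraries remained at 2 h, UME6(T99N)-3V5 had 3 members called, beside 23.7% of all genes. SER2 was at 16.0 and 10.2 TPM in UME6-3V5 and 24.1, 18.6 and 21.7 TPM in UME6(T99N)-3V5 (log2FC 0.80 ± 0.24). With the exchanged libraries used under their count labels, SER2 turned to −0.54 (edgeR adjusted p = 0.27) and 1 member was called. ILV2 also rose (log2FC 0.76 ± 0.29) and MET16 fell (log2FC −0.81 ± 0.29). Without UME6-3V5 replicate 3 none was called, and without T99N replicate 1 or 3 a single gene was. With only these groups in the fit, 1 was higher and 4 lower. At 6 h 8 were higher and 5 lower, beside 30.5% of all genes. With only these groups in the fit 17 were higher and 5 lower, and with the exchanged libraries under their count labels 5 were higher and 3 lower. LEU1 was at 2857, 3837 and 3369 TPM in UME6-3V5 and 618, 723 and 825 TPM in UME6(T99N)-3V5 (log2FC −2.10 ± 0.36, edgeR adjusted p = 3.5e-06). HIS6, an isomerase of histidine synthesis, fell (log2FC −1.02 ± 0.21), while HOM3 rose (log2FC 1.01 ± 0.38). Without UME6-3V5 replicate 3, 5 were higher and 3 lower, without UME6-3V5 replicate 2 or T99N replicate 1, 3 were lower, and without T99N replicate 3, 4 were higher. GCN4 had a log2FC of 0.38 ± 0.16 (edgeR adjusted p = 0.06). IME2 had a mean of 961 TPM in UME6-3V5 and 219 TPM in UME6(T99N)-3V5 at 2 h.

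Tethering Ime1 to Ume6(T99N) was accompanied by much lower levels of nearly all members. At 2 h 44 of the 50 were lower in the tethered than in the untethered strain and 3 higher, beside 33.3% and 29% of all genes, with a median log2FC of −1.28. All 6 histidine, 6 lysine, 5 homoserine and threonine, and 6 sulfate and methionine genes fell. IME2 had a mean of 19.6 TPM in the untethered and 2537 TPM in the tethered strain. At 2 h UME6 mRNA was at 36.4 to 49.8 TPM untethered and 128 to 163 TPM tethered, and IME1 at 922 to 1010 TPM and 2480 to 3030 TPM, and the part of these differences in the members' levels was not tested.

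HIS4 was at 247, 273 and 336 TPM untethered and 23.7, 21.5 and 30.4 TPM tethered at 2 h (log2FC −3.79 ± 0.28, edgeR adjusted p = 4.5e-19). MET17 was at 570, 506 and 796 TPM against 63.4, 52.6 and 67.7 TPM (log2FC −3.64 ± 0.24). LYS1 was at 535, 483 and 836 TPM against 72.0, 76.3 and 117 TPM (log2FC −3.09 ± 0.28), and HOM3 at 614, 550 and 672 TPM against 85.0, 106 and 124 TPM (log2FC −2.84 ± 0.37). The groups were far apart in all 4 genes. LEU1 was higher in the tethered strain, at 364, 946 and 326 TPM against 79.7, 84.2 and 128 TPM (log2FC 2.16 ± 0.36), as were PRO3 (log2FC 0.78) and ARO7 (log2FC 0.54). GCN4 mRNA was at 2307, 2047 and 1928 TPM untethered and 2551, 2471 and 2665 TPM tethered (log2FC 0.00 ± 0.16, edgeR adjusted p = 0.99). The TMM-scaled estimate was thus near 0 although the TPM did not overlap, and on the TPM scale the median of all genes was shifted by 0.28.

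At 6 h 39 members were lower and 5 higher in the tethered strain, beside 37.4% and 33% of all genes (median log2FC −1.12). MET17 was at 210, 202 and 168 TPM untethered against 15.9, 15.1 and 16.8 TPM tethered (log2FC −3.71 ± 0.25). GCN4 was lower at this time, at 1264, 1250 and 1671 TPM against 2906, 2534 and 2662 TPM untethered (log2FC −1.06 ± 0.16). BAT2 was higher, at 418, 432 and 407 TPM against 79.6, 115 and 103 TPM (log2FC 1.97 ± 0.21), and HIS6 at 29.8, 28.8 and 35.2 TPM against 9.96, 10.7 and 8.33 TPM (log2FC 1.57 ± 0.21). The number higher was 3 without untethered replicate 3 or tethered replicate 2. The difference between tethered and untethered strains was itself different at 6 h and 2 h in 11 members, beside 33.8% of all genes, including GCN4, BAT2 and HIS6.

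Against IME1; UME6(T99N)-3V5, which lacks the nanobody, the untethered strain was the one with the higher levels. This comparison and the others against strains without the nanobody were added after values had been seen, and they share the untethered or tethered libraries with the comparisons above. At 2 h 45 members were higher in the untethered strain and 2 lower, beside 19.9% and 17.1% of all genes (median log2FC 1.28). MET17 was at 146, 129 and 143 TPM in UME6(T99N)-3V5, below the untethered libraries given above (log2FC 2.31 ± 0.22, edgeR adjusted p = 2.2e-13). HIS4 was at 82.3, 48.1 and 66.3 TPM (log2FC 2.28 ± 0.26) and LYS1 at 141, 122 and 170 TPM (log2FC 2.24 ± 0.27), again below every untethered library. ARO7 (log2FC −0.72) and PRO3 (log2FC −0.40) were lower. Without untethered replicate 1, 1 member was lower. GCN4 (log2FC −0.30 ± 0.16, adjusted p = 0.12) and LEU1 (log2FC −0.31 ± 0.35, adjusted p = 0.51) were not called in edgeR.

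At 6 h 39 members were higher in the untethered strain and 1 lower, beside 26% and 25.7% of all genes (median log2FC 0.98). HIS4 was at 18.5, 16.6 and 15.4 TPM in UME6(T99N)-3V5 and 60.6, 95.2 and 78.3 TPM in the untethered strain (log2FC 2.39 ± 0.27). BAT2 was the lower member (log2FC −1.35 ± 0.21). Without T99N replicate 2, 2 members were lower. The URA3 value, which need not count the CaURA3 of the aGFP allele, moved with this comparison. Its means were 61.2 TPM in UME6(T99N)-3V5 and 23.3 TPM untethered at 2 h. UME6 moved too, at 96.4 to 103 TPM and 36.4 to 49.8 TPM, and so did IME1, at 2130 to 2470 TPM and 922 to 1010 TPM. Their part in the result was not tested. URA3 was at 23.3 and 19 TPM in the untethered and tethered strains, which both carry aGFP.

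Fewer members were called between the tethered strain and sfGFP-IME1; UME6(T99N)-3V5, which also lacks the nanobody. At 2 h 12 members were lower and 3 higher, beside 41% of all genes either way, with a median log2FC of −0.15 that became 0.10 on the TPM scale. Relative to all genes tested the median was −0.18 on the first scale and −0.14 on the second. HIS4 was at 41.1, 35.6 and 94.3 TPM in the strain without the nanobody (log2FC −1.38 ± 0.26) and MET17 at 107, 129 and 173 TPM (log2FC −1.36 ± 0.22), each above every tethered library. LEU1 was at 109, 98.5 and 161 TPM, below every tethered library (log2FC 1.91 ± 0.36). Without replicate 1 or 2 of the strain lacking the nanobody, or tethered replicate 2, 1 member was higher. The number called was 7 without replicate 3 of the strain lacking the nanobody and 9 or 6 without tethered replicate 1 or 2. At 6 h 12 were lower and 6 higher, beside 47.5% of all genes. MET17 (log2FC −1.75 ± 0.23) and LEU1 (log2FC 1.85 ± 0.35) kept their directions. At 2 h URA3 had means of 53.5 and 19 TPM, and UME6 was at 91.4 to 101 TPM without the nanobody and 128 to 163 TPM tethered. With the exchanged libraries under their count labels 7 members were called at 2 h.

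**Figure D4:**
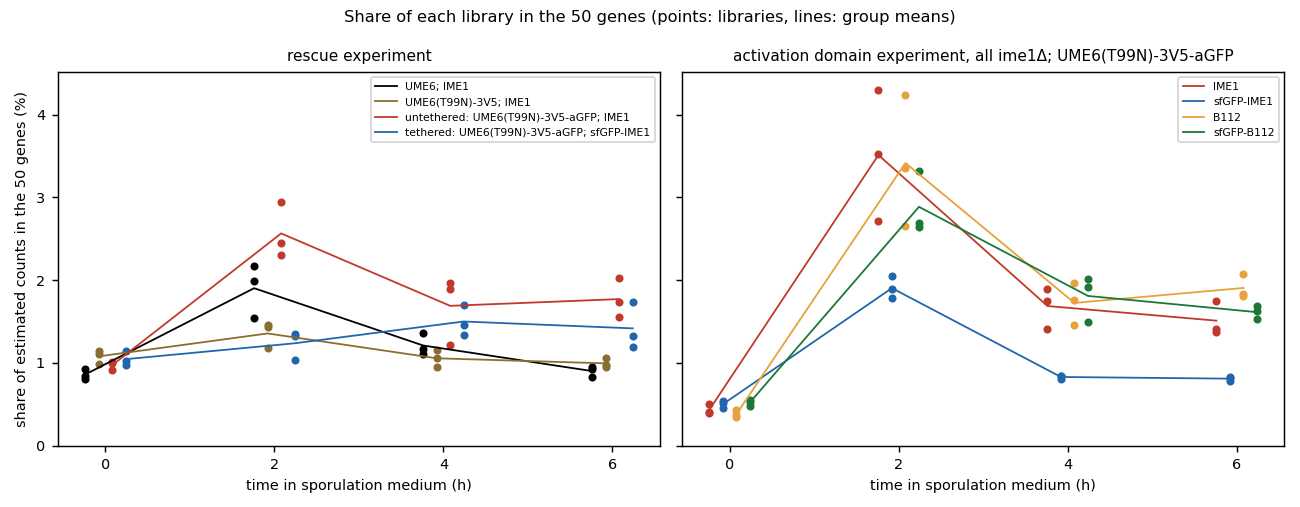
Percent of all estimated counts (vertical axis) held by the 50 genes in each library at 0, 2, 4 and 6 h of sporulation (horizontal axis), for strains of the rescue and AD experiments. At 2 h the untethered libraries lie at 2.308 to 2.942%, above the tethered ones at 1.037 to 1.347%.

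The AD experiment repeated the tethering in other strains and asked the same of B112. All its strains carry the nanobody, so its untagged strains could not be set against a strain without it, as in the rescue experiment. At 2 h 38 members were lower and 3 higher with sfGFP-IME1 than with untagged IME1, beside 31.2% and 32.6% of all genes (median log2FC −1.52). These 2 h comparisons were added after values had been seen. HIS4 was at 221, 251 and 384 TPM with IME1 and 17.4, 19.4 and 23.7 TPM with sfGFP-IME1 (log2FC −3.85 ± 0.38, edgeR adjusted p = 7.2e-11). ILV2 was at 1116, 1474 and 1744 TPM against 246, 181 and 213 TPM (log2FC −2.78 ± 0.29). LEU1 was higher with sfGFP-IME1, at 3330, 3476 and 2734 TPM against 857, 602 and 698 TPM (log2FC 2.12 ± 0.45).

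MET17 varied among the libraries with untagged IME1, at 749, 3473 and 944 TPM at 2 h, against 101, 67.7 and 94.0 TPM with sfGFP-IME1 (log2FC −4.31 ± 0.78). Its replicate 2 was also the highest at 4 and 6 h. GCN4 had a log2FC of −0.24 ± 0.28 at 2 h (edgeR adjusted p = 0.45). IME2 had means of 16 TPM with IME1 and 3129 TPM with sfGFP-IME1. UME6 was at 32.3 to 47.0 TPM with IME1 and 82.6 to 99.5 TPM with sfGFP-IME1 at 2 h, and its part in the result was not tested. At 6 h 23 members were lower and 5 higher, beside 31% and 30.1% of all genes, with a median log2FC of −0.61. On the TPM scale the median of all genes was shifted by −0.72. GCN4 fell, from 2321, 3553 and 3219 TPM to 592, 647 and 798 TPM (log2FC −1.41 ± 0.28), and BAT2 rose (log2FC 1.77 ± 0.27). Without IME1 replicate 1, 3 members were higher.

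With tethered B112 too, most of the members called were lower. At 2 h 30 members were lower and 2 higher with sfGFP-B112 than with B112, beside 24.4% and 24% of all genes (median log2FC −0.71). HIS4 was at 428, 266 and 426 TPM with B112 and 50.1, 41.0 and 43.7 TPM with sfGFP-B112 (log2FC −3.23 ± 0.37). LEU1 was at 1481, 369 and 399 TPM against 2600, 3319 and 4027 TPM (log2FC 1.98 ± 0.45). At 6 h 33 were lower and 4 higher, beside 31.1% and 28.5% of all genes (median log2FC −1.07). HIS4 was at 137, 208 and 223 TPM against 14.5, 16.5 and 14.2 TPM (log2FC −3.75 ± 0.38), and all 5 homoserine and threonine genes fell. LEU1, BAT2, PRO3 and ARO7 were the higher genes (log2FC 2.24, 1.38, 0.72 and 0.65). GCN4 had a log2FC of −0.33 ± 0.28 (edgeR adjusted p = 0.31). IME2 had means of 12.5 TPM with B112 and 3541 TPM with sfGFP-B112 at 6 h. UME6 was at 37.5 to 41.5 TPM with B112 and 69.4 to 78.4 TPM with sfGFP-B112 at 2 h, and its part in the result was not tested.

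The tethered activators, compared with each other at 6 h, differed in 19 members, 9 higher and 10 lower with sfGFP-B112, beside 56.8% of all genes either way. With only these groups in the fit, 13 were higher and 17 lower. GCN4 was at 2438, 2425 and 2340 TPM with sfGFP-B112, above every sfGFP-IME1 library (log2FC 1.04 ± 0.28, edgeR adjusted p = 0.0021). LEU1 was at 2802, 3658 and 3529 TPM against 805, 620.2 and 379 TPM (log2FC 1.69 ± 0.45), and ILV2 at 254, 243 and 196 TPM against 56.4, 66.0 and 56.1 TPM (log2FC 1.18 ± 0.28). PRO2, which acts after PRO1, was lower (log2FC −1.55 ± 0.15). The median of the members was −0.09 and became 0.67 on the TPM scale, where the median of all genes was shifted by 0.75; relative to all genes it was −0.10 and −0.09. NDT80 had means of 425 TPM with sfGFP-IME1 and 122 TPM with sfGFP-B112.

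**Figure D5:**
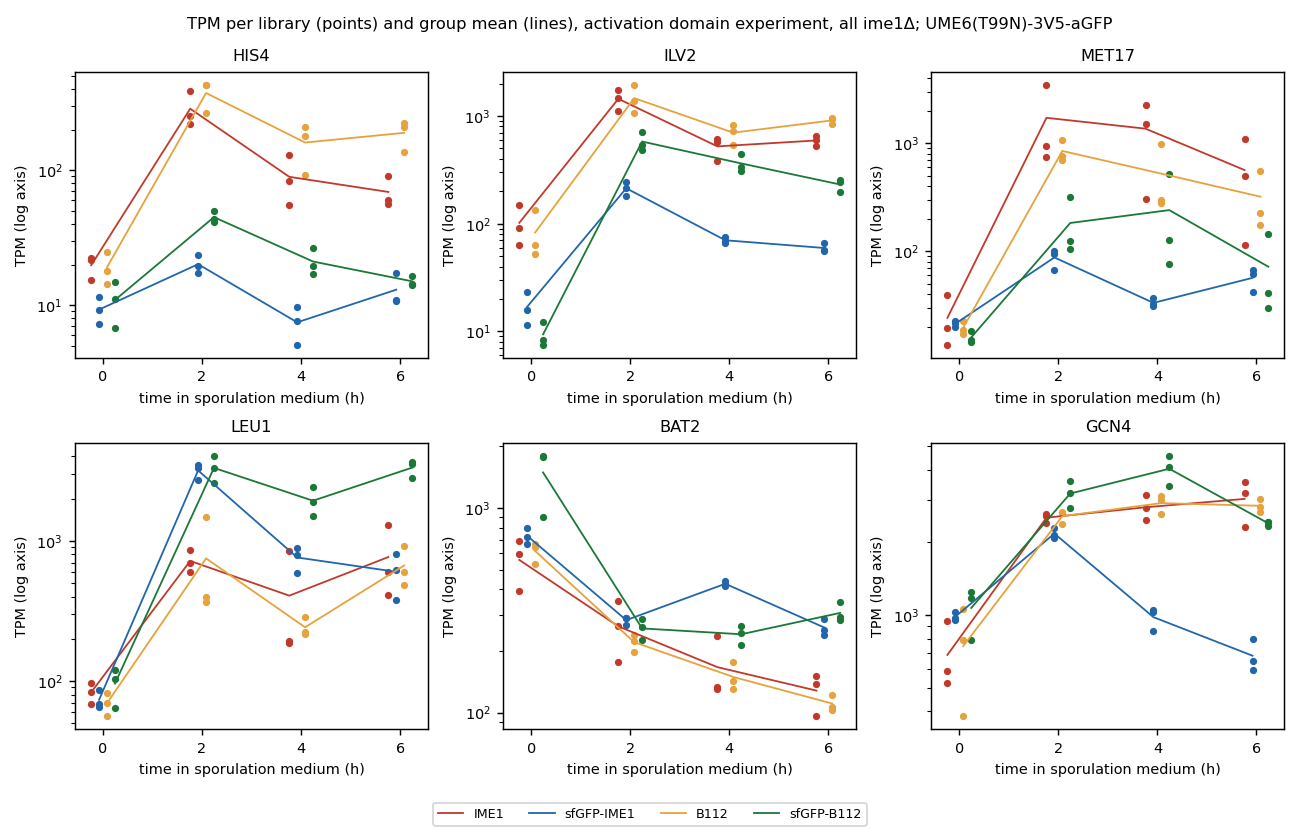
TPM (log axis) of HIS4, ILV2, MET17, LEU1, BAT2 and GCN4 in each library at 0, 2, 4 and 6 h of sporulation for the strains with IME1, sfGFP-IME1, B112 and sfGFP-B112. From 2 h on HIS4 and ILV2 are lower in both sfGFP strains than in their untagged counterparts, and LEU1 at 2 h is higher.

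Genes around the 50 were read from lists of the factors that act on Gcn4 (11 genes), regulators of single pathways (12), other synthesis genes (34) and amino acid permeases (14). In ume6Δ 15 of 33 other synthesis genes tested rose and 2 fell, beside 27.5% and 27.8% of all genes, with STR3, cystathionine beta-lyase, at a log2FC of 2.72 and MET5, sulfite reductase, at 2.37. Of the regulators 3 rose and 4 fell, MET28 with a log2FC of 2.74 and MET31 with −1.37. Of the factors on Gcn4, 5 fell and PCL5, a cyclin that promotes Gcn4 breakdown and is itself a Gcn4 target, rose (log2FC 0.72). The permease genes were divided, 3 higher and 4 lower. At 15 min of Ume6 depletion 14 of 33 other synthesis genes and 9 of 14 permease genes were lower, against 1 and none higher (10.5% of all genes lower, 10.2% higher), and STR3 was the higher gene (log2FC 1.59).

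In wild type from 0 to 2 h of sporulation 19 of 34 other synthesis genes rose and 7 fell, beside 33% and 33.8% of all genes. Of the factors on Gcn4 2 rose and 7 fell, PCL5 being among those that rose (log2FC 2.19), and of the permease genes 3 rose and 7 fell. Of the regulators 4 rose, among them MET28 (log2FC 3.34) and MET32 (2.34), and 2 fell. From 2 to 4 h 20 of the 34 other synthesis genes fell and 1 rose, beside 23.1% and 22.9% of all genes. From 4 to 6 h, when 43.4% of all genes fell and 30.1% rose, 10 of 11 factors on Gcn4 fell and 1 rose, while 8 of 14 permease genes rose, TAT1 most (log2FC 3.08), and 4 fell.

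In the tethered against the untethered strain at 2 h 26 of 34 other synthesis genes and 10 of 14 permease genes were lower, and 2 and 1 higher (33.3% of all genes lower, 29% higher). ASN1, asparagine synthetase, had a log2FC of −2.74, GAP1, the general permease, −3.27, and PCL5 −1.05. Of the 11 factors on Gcn4 as a list, 1 was higher and 2 were lower, with a median log2FC of 0.04. The untethered strain against UME6(T99N)-3V5 had 25 of 34 other synthesis genes, 7 of 14 permease genes and 8 of 12 pathway regulators higher and none lower at 2 h (19.9% of all genes higher, 17.1% lower). With sfGFP-IME1 against IME1 in the AD experiment at 2 h, 22 of 33 other synthesis genes and 9 of 14 permease genes were lower, against 3 and none higher (31.2% of all genes lower, 32.6% higher), with GAP1 at −3.48 and PCL5 at −1.47. Of the 11 factors on Gcn4, 2 were higher and 3 lower there. With sfGFP-B112 against B112 at 2 h, 4 permease genes were lower and 0 higher (24.4% and 24% of all genes). At 6 h permease genes were divided, 5 higher and 7 lower when tethered, 4 and 5 with sfGFP-IME1, 4 and 4 with sfGFP-B112. Beside these, all genes had 33% and 37.4%, 30.1% and 31%, and 28.5% and 31.1%. The other synthesis genes include the marker genes LYS2, LEU2, TRP1 and HIS3, whose values depend on how each strain was built.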

How the data were processed

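Polyadenylated RNA was sequenced as single-end reads of 100 bp from a directional kit. Per the study's methods, the authors quantified it against SK1 transcripts with kallisto, whose version is not given in the sources used here, setting the fragment length to 160 with an SD of 20, and deposited, for each experiment, a table of estimated counts and a table of TPM. Between 92.2% and 97.9% of the counts of a library were whole, and the estimated counts were rounded for testing. The deposited TPM are the values per library.

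The 50 members and the neighbouring lists were chosen with earlier results of these data known. Depth was 4603815 to 20789730 counts a library in the mitotic, 4322697 to 12330746 in the meiotic depletion, 44189 to 14452545 in the rescue and 6456844 to 23448759 in the AD experiment.

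Each experiment was fitted in edgeR 4.0.16 (R 4.3.3; TMM, filterByExpr, quasi-likelihood F test) with a mean for each group, and p was adjusted by Benjamini-Hochberg over all genes tested (5488, 5526, 5527 and 5528), with 0.05 as the threshold. There were 31 comparisons, 6 of them added after values were seen. Per the study, the 3 libraries of a group are biological replicates. An exact permutation test of 3 against 3 cannot go below 0.1 (two-sided) and was not used. Named were GCN4, isozyme pairs and, in each comparison, up to 10 called members a direction with the largest change whose libraries did not overlap in normalised CPM; ARO7, TRP3, SER2, HOM3, the PRO genes and the genes of the neighbouring lists were in part picked with their values in view.

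Other settings tried were DESeq2 1.42.0 and its size factors, no filter, only the groups compared, the replicate number or culture as a block, TPM with a pseudocount of 1 or 0.1, both namings of the exchanged libraries, the shallowest library left out, and each library left out in turn. Same-numbered libraries were checked for pairing through their deviations from group means: every pair correlated above 0.1 only in the mitotic control from −30 to 120 min (r = 0.343 to 0.632). The steps were tested on simulated data. Promoter and protein sequences were not used here.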

Additional observations from a re-analysis of the deposited data

Results flagged for a closer look

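In 11 members the difference between the tethered and the untethered strain was itself different at 6 h and at 2 h, by the interaction term in edgeR (adjusted p below 0.05; 3 libraries in each group). As log2FC at 6 h minus log2FC at 2 h, the values were −1.07 for GCN4, −0.69 for MET3, −1.13 for MET6 and −0.50 for PRO3. They were 0.93 for HIS5, 2.34 for HIS6, 2.57 for BAT2, 1.18 for LYS1, 1.04 for LYS4, 1.07 for TRP3 and 0.98 for SER33. The libraries of GCN4, BAT2 and HIS6 at 6 h are given in the report. The share of all genes tested with such a difference was 33.8%, above the 22% among the members.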

How the results depend on the processing

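Of 188 recounts of the members called, under settings other than leaving out a library, 170 stayed within 1.5 times the count given. With only the groups compared in the fit, the counts were 34, 3, 1 and 0 for Ume6 depletion at 15, 30, 60 and 120 min, 14 for the control against wild type, 0 and 1 for meiotic depletion at 2 and 2.5 h, 5 and 22 for T99N against UME6-3V5 at 2 and 6 h, and 30 for sfGFP-B112 against sfGFP-IME1. DESeq2 called 7 and 3 members at 60 and 120 min, and 3 and 1 in meiotic depletion at 2 and 2.5 h. With the exchanged libraries used under their count labels, 1 and 8 members were called for T99N at 2 and 6 h and 7 for tethered against sfGFP-IME1; UME6(T99N)-3V5 at 2 h, and SER2 turned to −0.54 in T99N at 2 h. The cause was not tested. Leaving out 1 library gave 2 to 13 members at 15 min, 0 to 8 at 30 min, 1 to 8 at 60 min, 0 to 3 at 120 min, 0 to 6, 0 to 1 and 2 to 7 in meiotic depletion at 2, 2.5 and 6 h, 0 to 2 and 8 to 11 for T99N at 2 and 6 h, and 6 to 16 for tethered against sfGFP-IME1; UME6(T99N)-3V5 at 2 h. Of 333 calls of named genes, 66 were lost without some library and 35 in another setting, 17 of these with only the groups compared. The replicate block called 1 member in meiotic depletion at 2.5 h and moved no other count of members called by over 1.5 times; in WT from 2 to 4 h every sample correlated best with its own number, and r for same-numbered pairs ran from −0.48 to 0.63. Lone libraries left in a group were assumed to vary like the others. Depth limited little beyond the library of 44189 counts, which was in no group compared.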
